A study of Mus musculus with 4 samples.

Results

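The DNA replication machinery was examined in pro-B cells, an early B-lineage stage in bone marrow that rearranges the immunoglobulin heavy chain. RNA came from B220+ c-Kit+ cells sorted from wild-type C57BL/6 mice, and 4 replicates were hybridized to 4 Affymetrix Mouse Gene 1.0 ST arrays. The labels name no transgene and no treatment, and all 4 arrays form 1 group, so no comparison between conditions was made. The labels give neither the age of the mice nor whether each replicate came from a separate animal, and the spread between arrays may therefore be technical in part. By the Xist values given below, replicate 3 did not come from the same mice as the others. The machinery was taken as 45 listed genes of origin licensing, helicase activation, the polymerases, the sliding clamp and its loader, single-strand binding, flap removal and ligation, and ribonucleotide reduction. A gene was represented by probe sets that carry its symbol and no other. All 45 genes had one, with 47 probe sets among the 34760 of the deposited table and 45 of 19937 genes named in this way.

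A replication origin is prepared in G1 phase and used in S phase. The origin recognition complex (ORC) binds DNA, and Cdc6 and Cdt1 load the MCM helicase on it, while geminin (Gmnn) restrains Cdt1. The kinase Cdc7 with its activator Dbf4 then triggers helicase activation, in which Cdc45 and the GINS complex join MCM. Polymerase alpha-primase starts the new strands, polymerases epsilon and delta extend them, and Pcna, the ring loaded by replication factor C (RFC), holds the polymerases on DNA. Pro-B cells divide in the marrow, and the recombinase that cuts their heavy-chain locus is kept apart from S phase.

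The arrays were similar as a whole and different in cell type markers. Each had a median log2 value between 7.31 and 7.35, and Pearson's r between arrays, taken across probe sets, which are not independent of each other, was 0.986 to 0.989. All 14 early B-cell markers represented on the array passed the background line described below, but so did all 10 erythroid and all 12 granulocyte and monocyte markers. On the array of replicate 1 the early B-cell markers were higher than the mean of the other arrays by a median of 0.68 on the log2 scale (13 of 14 genes). The exception was Kit, the gene of the sort marker c-Kit, with a shift of -0.36. The erythroid markers were lower on this array by a median shift of -1.31 (10 of 10 genes). Replicate 3 stood apart in Xist, the X-inactivation transcript, at 5.48, below its background line of 6.54, while the other arrays had 13.04 to 13.17. By this transcript the sex of the mice differed between replicate 3 and the others. The sample titles give no sex, and no gene of the Y chromosome was examined.

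Transcripts of the whole machinery were detected. A background line was drawn on each array from the 1246 probe sets of sensory receptor genes (smell, pheromone and taste), taken as silent in the B lineage. It was their 95th percentile and lay between 6.53 and 6.62. All 45 genes exceeded the line on all 4 arrays, where 63.5% of all genes did. Gmnn came nearest to it, with a smallest margin of 0.50 on the log2 scale, followed by Orc1 with 1.74, and the margin reached 6.53 for Pcna. With a line at the 99th percentile, or at the median of the array, 44 genes passed and Gmnn did not. The deposited values are log2 intensities after RMA, so they give the order of 1 gene over the arrays but not of different genes, whose probes differ in brightness.

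**Figure D1:**
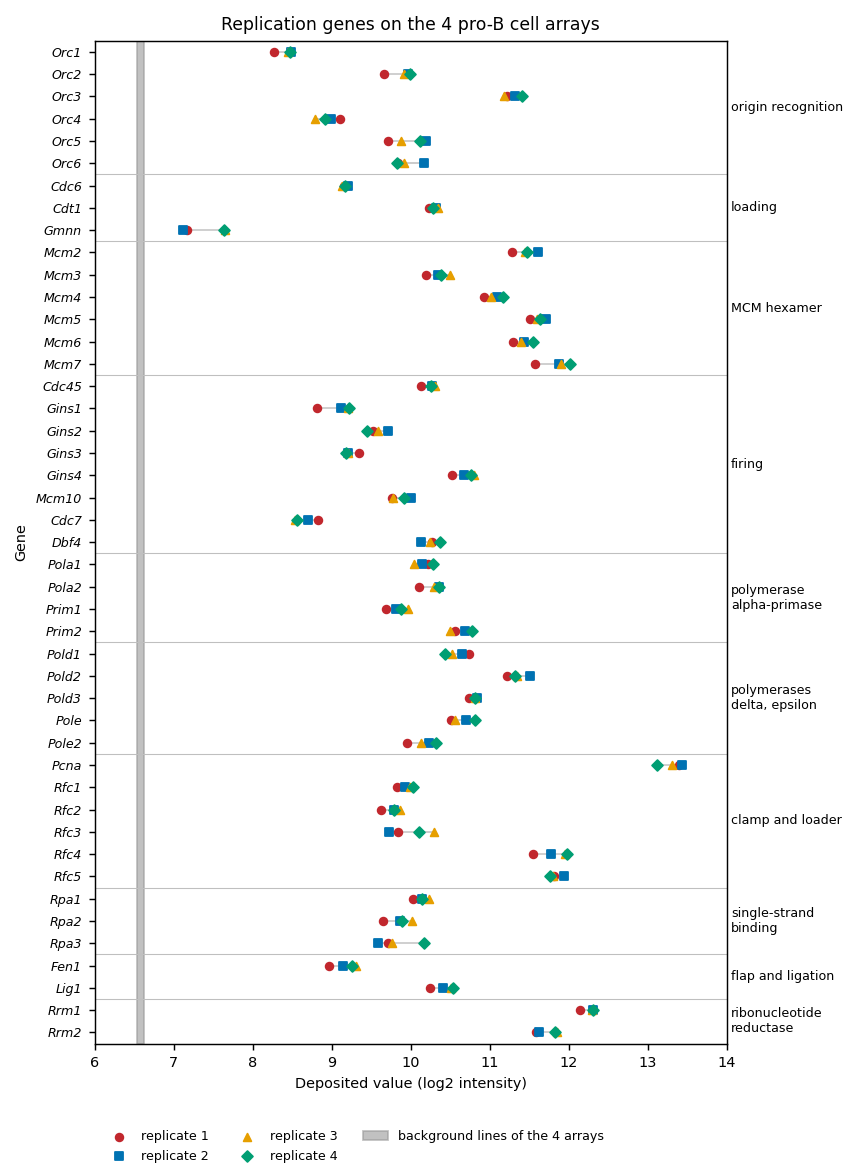
Log2 value (horizontal axis) of each of the 45 replication genes (rows, grouped by role) on the 4 arrays of wild-type pro-B cells (symbols), with the background lines of the arrays as a grey band between 6.53 and 6.62. Every symbol lies to the right of the band, with Gmnn nearest to it, and the symbol of replicate 1 is the leftmost of its row in 29 rows.

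Spread between the replicate arrays was small for most of these genes. For the 45 genes the median SD between arrays was 0.12 in log2 units, with a range of 0.029 to 0.29, and 0.11 for all 12658 genes above background. A range over the arrays of more than 0.5, or 1.41-fold, was found for 3 of 45 genes (Gmnn, Rfc3 and Rpa3), against 11.5% of all genes above background. A second probe set of Rpa3 had a range of 0.34, and Gmnn was the gene nearest to the background line. Without replicate 2 the count of genes was 0. The members thus varied by small amounts, and the pattern described next is one of direction rather than of size.

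**Figure D2:**
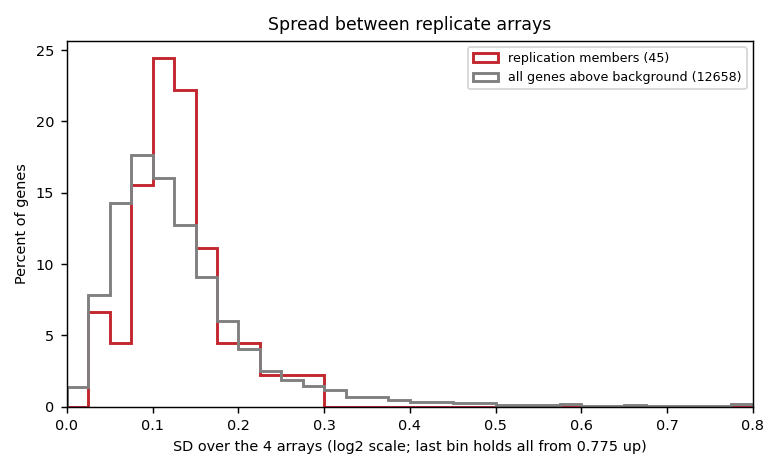
SD over the 4 arrays (horizontal axis, log2 scale) against the percent of genes in each bin (vertical axis), for the 45 replication genes (red) and all 12658 genes above background (grey). The red outline ends below 0.3, and the medians are 0.12 and 0.11.

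The direction was uneven. On the array of replicate 1, 38 of the 45 genes were lower than the mean of the other 3 arrays and 7 were higher, against 52.2% higher among all genes above background. The median shift was -0.17 on the log2 scale, that is 0.892 of the level on the other arrays, with shifts from -0.37 to 0.23. For all genes above background the median was 0.0098, and for the 10210 of them within the members' range of mean levels it was 0.015. For 29 of 45 genes replicate 1 was the lowest of the 4 arrays, against 29.0% of all genes. Each of the other arrays showed the same side when set against replicate 1 alone. The median difference of replicate 1 was -0.15 from replicate 2 (36 of 45 genes lower, beside 48.2% of all genes), -0.15 from replicate 3 (34 lower, beside 49.1%) and -0.19 from replicate 4 (37 lower, beside 46.4%), whereas the medians among replicates 2 to 4 lay between -0.03 and 0.03.

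Of the other arrays, that of replicate 2 had 31 of 45 genes higher than the mean of its others (median shift 0.048), beside 49.8% of all genes above background. The array of replicate 3 had 23 genes higher (median 0.016), beside 52.3%. That of replicate 4 had 35 higher (median 0.072), beside 45.5%. The means for these arrays include the low array of replicate 1. With replicate 1 left out, 24 of 45 genes were higher on the array of replicate 2 (median shift 0.0042), beside 52.5% of all genes above background. On that of replicate 3, 19 were higher and the median turned to -0.018, beside 53.4%. On that of replicate 4, 25 were higher (median 0.027), beside 44.3%. The higher side of replicates 2 and 4 was thus smaller among these 3 arrays.

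**Figure D3:**
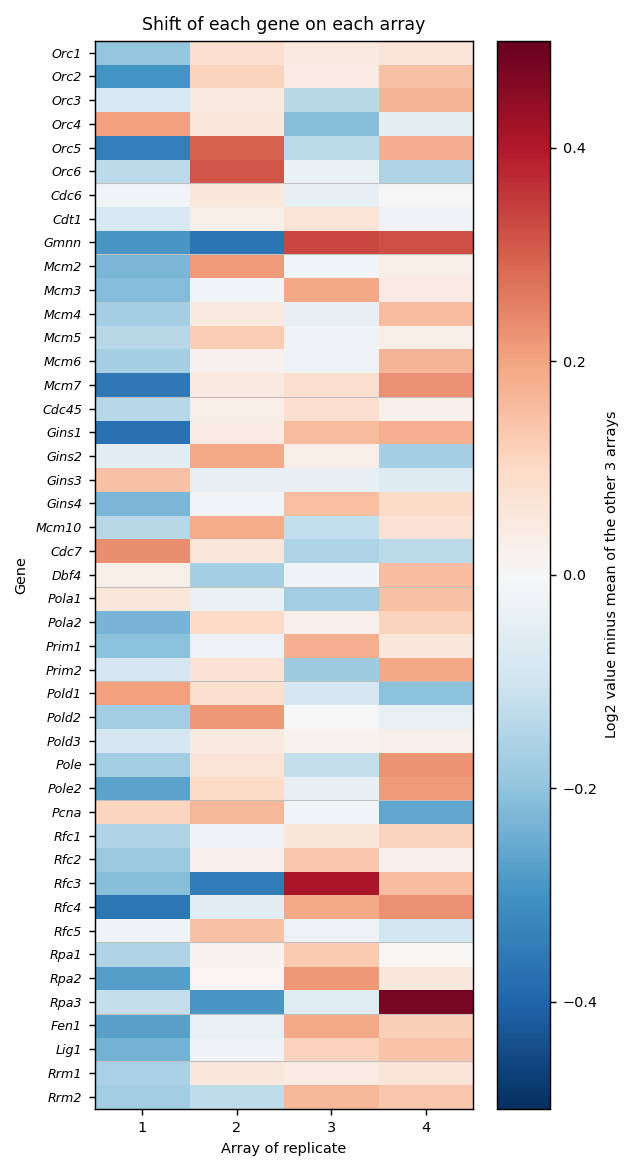
Difference of the log2 value from the mean of the 3 remaining arrays (colour, from -0.5 in blue to 0.5 in red) for the 45 replication genes (rows, grouped by role) on the arrays of replicates 1 to 4 (columns). The column of replicate 1 is blue in 38 rows and red in 7: Orc4, Gins3, Cdc7, Dbf4, Pola1, Pold1 and Pcna.

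This lower side of replicate 1 came with shifts of cell type markers on the same array. Erythroid markers had a median log2 level of 8.21 there, while the other arrays had 9.60 to 9.89, and all 10 were above background on every array. Early B-cell markers had a median level of 10.93 there, and 10.07 to 10.60 on the others. Granulocyte and monocyte markers had a median level of 11.97 there, and 11.62 to 12.43 on the others, so their signal was strong on every array. From which cells the replication RNA came was not tested. Of the granulocyte and monocyte list the median shift was -0.10 (4 of 12 higher) and of the housekeeping genes -0.025 (3 of 7 higher). The pre-B and immature B-cell list had a median shift of 0.68 (6 of 7 higher), that of T and NK cells -0.20 (1 of 6 higher) and that of megakaryocytes 0.31 (3 of 4 higher). Markers moved on the other arrays as well. On that of replicate 4 the median shift was -0.55 for the early B-cell list (10 of 14 lower), -0.74 for that of later B-cell stages (6 of 7 lower), -0.58 for megakaryocytes (4 of 4 lower) and 0.32 for the erythroid list (10 of 10 higher). On that of replicate 2 it was 0.66 for the erythroid list (10 of 10 higher), -0.35 for the granulocyte and monocyte list (9 of 12 lower) and -0.30 for the early B-cell list (12 of 14 lower). Of the 10 erythroid genes, 10 were lowest on replicate 1, and 8 were highest on replicate 2 and 0 on replicate 4. Of the 14 early B-cell genes, 11 were highest on replicate 1, and 5 were lowest on replicate 2 and 8 on replicate 4. The higher erythroid side of replicate 4 and the lower early B-cell side of replicate 2 thus reflect replicate 1 at least in part. Marker shifts without replicate 1 were not computed. The part of these markers in the shifts of the replication genes was not tested. A smaller number of replicating cells and less replication RNA in each cell cannot be told apart in bulk RNA.

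Genes of the same process outside the list, and genes of mitosis, were set beside these values. The 18 other fork and firing factors were all above background and had a median shift of -0.058 on the array of replicate 1, with 13 lower. Pole3, a histone-fold subunit of polymerase epsilon, had a shift of -0.44 there, Tipin, of the fork protection complex, -0.37, and Wdhd1, which links polymerase alpha to the helicase, -0.34. Shifts of 0.30 for Pold4 and 0.15 for Pole4, small subunits of polymerases delta and epsilon, had the opposite sign. Nucleotide supply and chromatin assembly genes (11 with a probe set, all above background) had a median shift of -0.081 with 8 lower, among them Tk1, thymidine kinase, at -0.54, Dut, which removes dUTP, at -0.55, and Nasp, a histone chaperone, at -0.34. The 3 others were higher there, with shifts of 0.29 for Asf1b, 0.28 for Dck and 0.15 for Chaf1a.

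Mitotic genes as a list lay near 0 on this array. Of 17 with a probe set, all above background, 12 were higher on the array of replicate 1, with a median shift of 0.032, but 8 were higher and the median was -0.0023 after centring each array on its median. This centring moved the median of all genes above background as well, from 0.0098 to -0.024. The log2 values of Mki67, the proliferation antigen, were 12.48, 12.37, 12.47 and 12.48 on the arrays of replicates 1 to 4, those of Top2a, a topoisomerase of S and G2 phase, 11.45, 11.35, 11.49 and 11.47, and those of Ccna2, cyclin A2, 12.48, 12.40, 12.32 and 12.38. Their ranges over the arrays were small, and for Mki67 replicate 2 lay below the other arrays, which were close to each other. Foxm1, a transcription factor of mitotic genes, had a shift of 0.28, the spindle motor Kif11 one of 0.23 and Plk1, a mitotic kinase, one of -0.19. The E2F network, whose factors bind promoters of replication genes, had a median shift of 0.019 over 13 genes, with 7 higher, and -0.015 after the same centring. E2f1, an activator, had -0.12 and E2f2, another, 0.27, while E2f4, mostly a repressor, had -0.42 and E2f7, a repressor, 0.36. The difference between these lists and the replication genes was not tested.

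**Figure D4:**
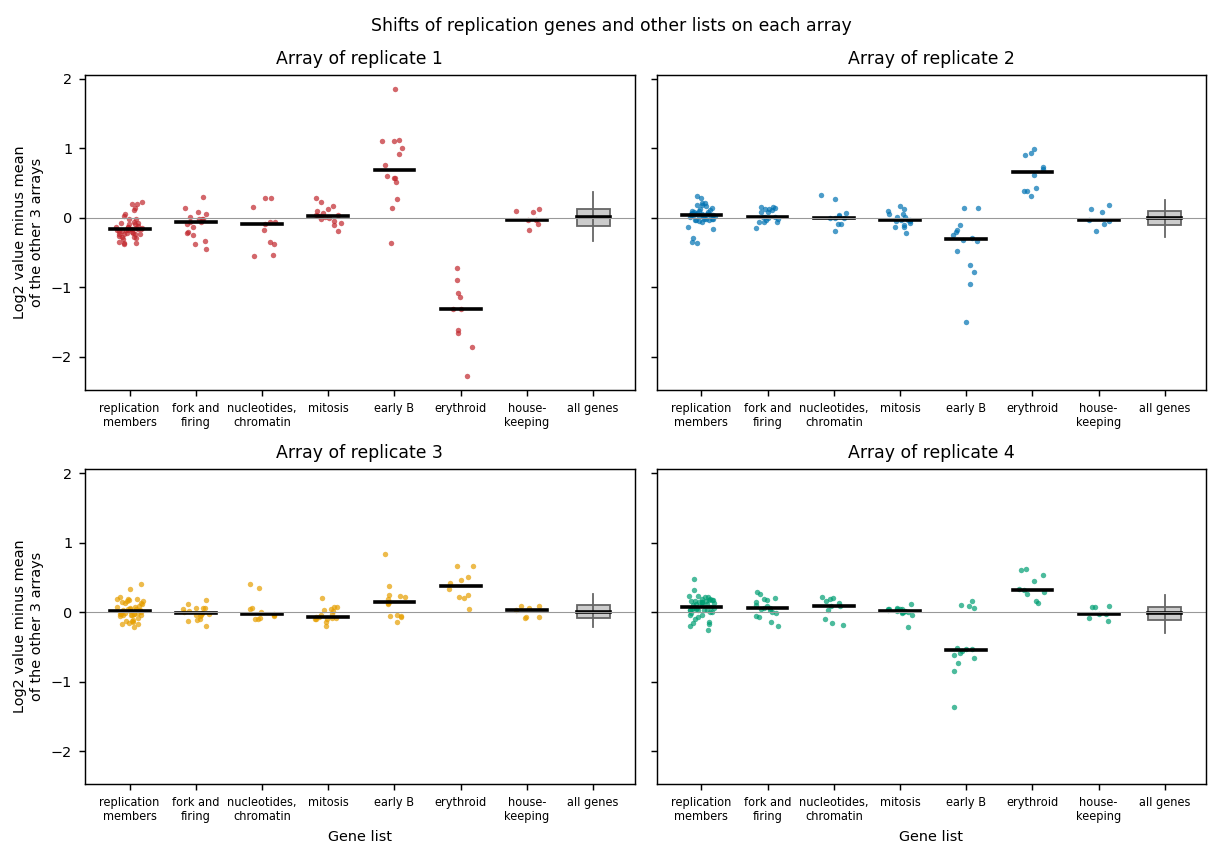
Difference of the log2 value from the mean of the 3 remaining arrays (vertical axis) in 7 gene lists and all genes (horizontal axis), 1 panel per array of wild-type pro-B cells. Points are genes above background, thick bars are medians, and for all genes the box spans the 25th to the 75th and the line the 5th to the 95th percentile; on the array of replicate 1 the bar of the replication genes lies at -0.17, that of mitosis at 0.032 (-0.0023 after median centring) and that of the erythroid markers at -1.31.

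Promoter sequence was read for what the genes share beyond their expression. E2F factors bind words of the form TTTCCCGC, TTTCGCGC, TTTGCCGC or TTTGGCGC, which were searched on both strands in RefSeq promoter windows (build GRCm38.p6, 250 bases before to 50 after a transcript start). Windows were matched by symbol for 37 of the 45 genes, and the others were Mcm4, Gmnn, Gins1, Gins2, Gins4, Prim2, Pole and Rfc2. An E2F-like word was found for 15 of the 37 (40.5%), against 2.60% of all 27025 genes with a window, 3.29% of the 17491 protein-coding ones and 4.56% of the 10138 above background on these arrays. The 15 genes held 21 matches, of which 2 pairs overlap, and were Orc1, Orc3, Cdc6, Cdt1, Mcm3, Mcm5, Mcm6, Mcm7, Gins3, Pola1, Pold1, Pold3, Pole2, Rfc3 and Lig1. A match is a description of letters, not a measured site.

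Shown here are the 180 bases before the transcript start of 6 of them, 5′ to 3′ on the strand of the gene, with E2F-like words of either strand in capitals. They were picked as 3 subunits of the helicase, as genes on which 1 array stood apart (Orc1, Gins3), and as the least variable gene (Cdc6).
Mcm5, chr8:75109329-75109508, plus strand: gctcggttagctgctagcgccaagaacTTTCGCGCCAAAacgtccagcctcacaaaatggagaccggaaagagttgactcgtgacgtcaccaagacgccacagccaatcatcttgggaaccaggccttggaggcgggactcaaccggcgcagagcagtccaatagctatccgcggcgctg
Mcm6, chr1:128359706-128359885, minus strand: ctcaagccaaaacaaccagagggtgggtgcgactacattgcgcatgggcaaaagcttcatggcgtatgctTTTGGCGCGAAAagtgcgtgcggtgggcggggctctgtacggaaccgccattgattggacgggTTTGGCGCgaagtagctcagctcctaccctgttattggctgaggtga
Mcm7, chr5:138171884-138172063, minus strand: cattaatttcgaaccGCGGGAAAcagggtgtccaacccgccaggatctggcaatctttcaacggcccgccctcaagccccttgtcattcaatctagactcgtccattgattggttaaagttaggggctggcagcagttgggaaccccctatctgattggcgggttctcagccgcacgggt
Orc1, chr4:108579274-108579453, plus strand: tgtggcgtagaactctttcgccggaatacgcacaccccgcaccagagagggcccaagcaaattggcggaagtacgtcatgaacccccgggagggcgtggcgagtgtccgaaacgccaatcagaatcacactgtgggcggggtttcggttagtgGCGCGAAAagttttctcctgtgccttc
Gins3, chr8:95633379-95633558, plus strand: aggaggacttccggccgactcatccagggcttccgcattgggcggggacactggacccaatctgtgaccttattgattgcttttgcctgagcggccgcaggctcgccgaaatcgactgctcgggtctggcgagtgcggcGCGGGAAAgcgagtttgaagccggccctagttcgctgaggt
Cdc6, chr11:98907971-98908150, plus strand: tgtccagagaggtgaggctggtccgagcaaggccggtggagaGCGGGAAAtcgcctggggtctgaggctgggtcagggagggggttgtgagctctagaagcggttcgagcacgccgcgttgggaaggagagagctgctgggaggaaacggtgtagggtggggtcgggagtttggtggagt

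In Mcm5 and in Mcm6 a pair of words overlaps on opposite strands and makes 1 longer run of capitals, and Mcm6 holds a further word nearer to its start. Mcm7, Gins3 and Cdc6 each show 1 word as GCGGGAAA, the opposite strand of TTTCCCGC, and Orc1 shows GCGCGAAA, that of TTTCGCGC. The 15 genes with a word had a median shift of -0.14 on the array of replicate 1 (12 of 15 lower), and the 22 with a window and no word one of -0.16 (18 of 22 lower). The lower side of replicate 1 was therefore seen in both.

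**Figure D5:**
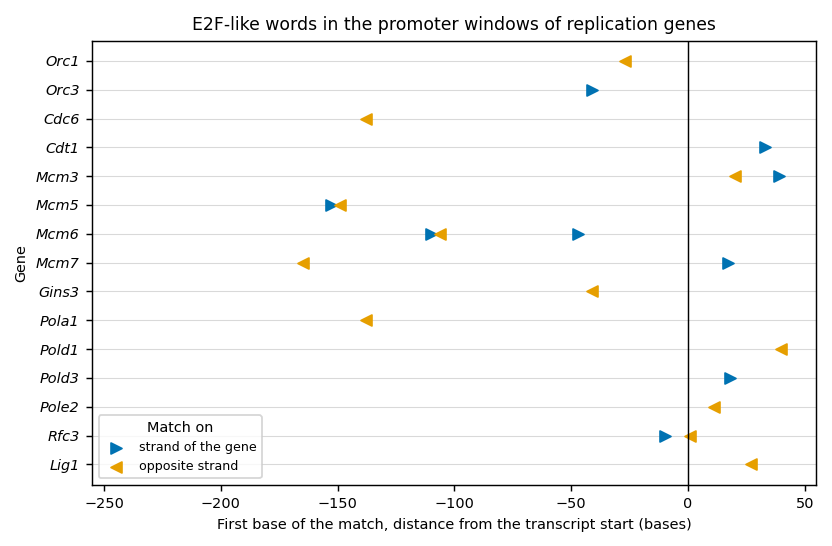
Position of the first base of each E2F-like word relative to the transcript start (horizontal axis, in bases; vertical line at the start) in the promoter windows of 15 replication genes (rows). Triangles point right for words on the strand of the gene and left for the opposite strand; Mcm6 holds 3 matches, and Mcm3, Mcm5, Mcm7 and Rfc3 hold 2 each.

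The helicase core had 1 direction on the array of replicate 1, while the size of the shift differed between its subunits. Mcm2 to Mcm7 encode the 6 subunits of the ring that unwinds the DNA, and for 6 of 6 the array of replicate 1 was the lowest. Mcm2 had log2 values of 11.28, 11.61, 11.44 and 11.47 on the arrays of replicates 1 to 4, and Mcm7 had 11.57, 11.88, 11.90 and 12.02. The shift of replicate 1 was -0.36 for Mcm7, -0.23 for Mcm2, -0.22 for Mcm3, -0.17 for Mcm4, -0.17 for Mcm6 and -0.14 for Mcm5. On replicates 2 to 4 the order of the arrays differed from subunit to subunit. Mean values were 11.45 ± 0.14 for Mcm2, 10.35 ± 0.13 for Mcm3, 11.05 ± 0.10 for Mcm4, 11.62 ± 0.083 for Mcm5, 11.42 ± 0.10 for Mcm6 and 11.84 ± 0.19 for Mcm7 (SD, n = 4).

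Origin recognition genes were mixed, with 5 of 6 lower on the array of replicate 1 and 3 lowest there (median shift -0.16). Orc1, an ATPase subunit, had log2 values of 8.27, 8.48, 8.45 and 8.47 on the arrays of replicates 1 to 4, and replicate 1 lay below the other arrays, which were close to each other. Orc2 had 9.66, 9.97, 9.91 and 10.00, again with replicate 1 lowest, and Orc5 had 9.72, 10.20, 9.88 and 10.11. For Orc6, the subunit that binds Cdt1 during loading, the values were 9.84, 10.17, 9.91 and 9.82, and there replicate 2 was the high one. Orc4 went the other way on replicate 1, with a shift of 0.21 and a mean of 8.95 ± 0.13 (SD, n = 4). Orc3, a core subunit, had a mean of 11.28 ± 0.10 (SD, n = 4).

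The loading factors included the most and the least variable of the 45 genes. Gmnn, the inhibitor of Cdt1, had log2 values of 7.17, 7.12, 7.64 and 7.64 on the arrays of replicates 1 to 4 (SD 0.29), so that replicates 1 and 2 formed a low pair and replicates 3 and 4 a high one. It was also the gene nearest to the background line. Cdc6, the loader whose promoter is shown above, had 9.15, 9.20, 9.13 and 9.16 (SD 0.029), and Cdt1, its partner, had 10.24, 10.31, 10.34 and 10.28 (SD 0.046). The whole range was 0.069 for Cdc6 and 0.11 for Cdt1, while the Gmnn values spanned 0.52.

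Genes of helicase activation had a median shift of -0.10 on the array of replicate 1, with 5 of 8 lower. Cdc45, which joins MCM and GINS in the active helicase, had log2 values of 10.13, 10.27, 10.30 and 10.26 on the arrays of replicates 1 to 4. Gins1, a GINS subunit, had 8.81, 9.12, 9.21 and 9.22 and the lowest shift of all 45 genes on replicate 1 (-0.37). Its partner Gins3 had 9.34, 9.20, 9.20 and 9.19, with replicate 1 as the high array. The subunits of this complex thus differed in sign, and Gins2 (mean 9.57 ± 0.11) had a shift of -0.06 and Gins4 (mean 10.69 ± 0.13) of -0.23. Cdc7, the firing kinase, had a shift of 0.23 and its activator Dbf4 one of 0.03, whose sign turned (-0.0059) after median centring, while Mcm10, which binds the helicase at firing, had -0.14. Means were 8.66 ± 0.14 for Cdc7, 10.25 ± 0.10 for Dbf4 and 9.86 ± 0.12 for Mcm10 (SD, n = 4).

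Polymerase genes were also mostly lower on that array. Pola1, the catalytic subunit of polymerase alpha, had log2 values of 10.21, 10.15, 10.04 and 10.28 on the arrays of replicates 1 to 4, with replicate 4 highest and replicate 3 lowest. Its accessory subunit Pola2 had a shift of -0.23 on replicate 1, and the primase genes Prim1 and Prim2 had -0.21 and -0.09. Pold1, the catalytic subunit of polymerase delta, had 10.74, 10.65, 10.52 and 10.44, with replicate 1 highest and replicate 4 lowest. Its partner subunits had the opposite sign there, with a shift of replicate 1 of -0.17 for Pold2 and -0.09 for Pold3. Pold3 itself was nearly flat, at 10.73, 10.83, 10.81 and 10.82. Pole2, the second subunit of polymerase epsilon, had 9.95, 10.22, 10.12 and 10.31, and Pole, the catalytic one, had a mean of 10.64 ± 0.14 (SD, n = 4), and both had their highest value on replicate 4. Means were 10.28 ± 0.12 for Pola2, 9.84 ± 0.12 for Prim1, 10.63 ± 0.12 for Prim2 and 11.35 ± 0.12 for Pold2 (SD, n = 4).

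Pcna, the sliding clamp, had log2 values of 13.39, 13.44, 13.30 and 13.12 on the arrays of replicates 1 to 4, with replicate 4 lowest and replicate 1 above the mean of the others. A second probe set of Pcna had 13.09, 13.16, 12.92 and 13.00, where replicate 3 was lowest, so the lowest array differed, while the shift of each array had the same sign in both. Pseudogenes of Pcna are listed in the reference gene table, and to which locus each probe set belongs was not tested. Of the RFC loader genes, all 5 were lower on replicate 1, with Rfc5 nearest to 0 and at 0.0075 after quantile normalization. Rfc4 had 11.54, 11.77, 11.95 and 11.98, with replicate 1 lowest. Rfc3 had 9.83, 9.73, 10.30 and 10.11, with replicate 2 lowest and replicate 3 highest, with an SD of 0.26. Rfc1, the large subunit, Rfc2 and Rfc5 had means of 9.94 ± 0.086, 9.76 ± 0.10 and 11.83 ± 0.077 (SD, n = 4).

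Single-strand binding protein RPA covers the unwound strands. Rpa1, its large subunit, had log2 values of 10.03, 10.15, 10.24 and 10.14 on the arrays of replicates 1 to 4, and Rpa2 had 9.65, 9.86, 10.02 and 9.89, both lowest on replicate 1. Rpa3, the small subunit, had 9.72, 9.59, 9.76 and 10.16, with replicate 4 highest. A second probe set of Rpa3 had 9.03, 8.88, 9.23 and 9.15, and there replicate 3 was highest, so the high value of replicate 4 was not shared by both probe sets, although replicate 2 was lowest in each. Of the enzymes that finish the lagging strand, Fen1, the flap nuclease, had 8.96, 9.14, 9.31 and 9.26, and Lig1, the ligase, had a mean of 10.43 ± 0.13 (SD, n = 4). Replicate 1 was the lowest array for both.

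Ribonucleotide reductase supplies the deoxyribonucleotides. Rrm1, its large subunit, had log2 values of 12.14, 12.31, 12.29 and 12.31 on the arrays of replicates 1 to 4, with the other arrays close to each other and replicate 1 below them. Rrm2, the subunit that limits the enzyme in S phase, had 11.59, 11.62, 11.84 and 11.82, where replicates 1 and 2 lay below replicates 3 and 4. A single array stood apart by Dixon's ratio at its 95% critical value for 3 of 45 genes, Orc1, Gins3 and Rrm1, against 5.39% of all genes above background.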

How the data were processed

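The authors made cDNA from total RNA, hybridized it to Mouse Gene 1.0 ST arrays (Affymetrix) and applied RMA for background correction and normalization. The deposited values are thus on a log2 scale, 1 for each probe set. A filter on low expression is mentioned without its threshold, and which arrays were normalized together is not given in the sources used here. RMA evens out differences common to all genes of an array, so only differences relative to other genes remain.

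All 34760 probe sets and 4 columns were used, and 0 columns lacked a sample. By the platform annotation, 21640 probe sets carry 1 gene symbol, 1321 several and 11799 none listed, and genes were named only from the first. The 47 member probe sets were all found by Entrez number in the RefSeq gene list, and 0 symbols differed. The value of a gene is that of its probe set with the highest mean, and a gene was above background if any of its probe sets lay over the line on each array, as 45 of the 1246 sensory receptor probe sets also did. A shift is the log2 value on 1 array less the mean of the remaining ones. Values over the members are descriptions beside the same value over all genes, and no p-value was computed for them, since the samples form 1 group. The number of arrays limits the precision.

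The members and lists were chosen with earlier results of these data known. The rule for named genes was: every member by role; values on each array for the 12 members of largest SD, the 4 of smallest SD, those with 1 array apart and the first of each role; and from other lists the first 3 and the 3 of largest SD, of which some are given. Xist was named after its values were seen. Alternatives were other background lines, 3 of 4 arrays, a one-sided limma test, quantile normalization, median centring and cyclic loess. Further ones were the probe set of largest SD, another reference, the range, no filter, fewer motif words and leaving out each replicate. For each member the probe set of largest SD was the one already used, so the second probe sets of Pcna and Rpa3 did not enter. Python 3.11.15 was used with matplotlib 3.10.9, pandas 2.3.3 and numpy 2.4.6, and limma 3.58.1 was run in R 4.3.3. Scripts were tested on simulated data.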

Additional observations from a re-analysis of the deposited data

Results flagged for a closer look

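On 3 of the 45 genes 1 array lay far from the others by Dixon's ratio, and in each it was the array of replicate 1. Chance gives about 1 in 20 genes, and 5.39% of all genes above background were called. Replicate 1 was often at an end for all genes above background too, lowest of 4 for 29.0% and highest for 33.2%. How often it was the array apart among all called genes was not counted. Orc1 was low there at 8.27, with a mean of 8.47 on the other arrays (ratio 0.862). Rrm1 was low at 12.14, with a mean of 12.30 on the others (ratio 0.908). Gins3 was high at 9.34, with a mean of 9.20 on the others (ratio 0.881).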

How the results depend on the processing

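No paired analysis was possible because the 4 arrays form a single group. The scalings of the other gene lists were added after seeing the data. Of 119 values over the members recomputed under 18 alternatives, 117 moved by less than the median SD between arrays (0.12) or, for counts, by at most 1.5 times. Leaving out the filter could not change a value, because all 45 genes passed it. Nor could the probe set of largest SD, which was the one already used for each member. The limit of 0.12 is wide beside the median shifts of replicates 2 to 4. Over the alternatives these ran from 0.0042 to 0.065, from -0.018 to 0.064 and from 0.027 to 0.13, so that of replicate 3 has no settled sign. Without replicate 1 they were 0.0042, -0.018 and 0.027. The exceptions were the range in place of the SD, a larger quantity by construction with a median of 0.284, and the count of genes with a range above 0.5, which ranged from 0 to 3 over the fits that leave out an array, with 0 without replicate 2. On the array of replicate 1 the median shift was -0.20 to -0.13 under the other processing settings and -0.17 to -0.15 when each other replicate was left out. The count of genes higher there was 6 to 8 and 6 to 9. The number above background was 44 with the 99th percentile or the array median as line (Gmnn fell out), and 45 under the other alternatives, the limma test included. Under quantile normalization, median centring and cyclic loess the median shifts of the replication genes, of the early B-cell markers and of the erythroid markers kept their sign there, and those of mitosis and the E2F network turned under median centring alone. The median of all genes above background turned as well, from 0.0098 to -0.011, -0.024 and -0.0072 in that order. The shift of Cdc6 on the array of replicate 1 went to -0.048 under median centring, more than its own SD of 0.029. With TTTGGCGC and TTTCCCGC alone, 13 of 37 genes held a word. Signals near the background line, such as that of Gmnn, are the least certain.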

Other observations

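Other short promoter words were counted in the same windows, on both strands. The letters CCAAT were in the windows of 23 of 37 replication genes (62.2%), against 42.0% of genes above background. The GC box GGGCGG was in 28 of 37 (75.7%), against 66.6%, and TATAAA in 3 of 37 (8.11%), against 8.87%. The median GC content of the windows was 61.3% for the replication genes and 60.7% for genes above background, so the sets were of like base composition. Genes with an E2F-like word had a median SD over the arrays of 0.10 on the log2 scale, and those with a window and no word one of 0.13. No test was made of these differences.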
